A study of Mus musculus with 4 samples.

Results

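The cells described here are the CD8_HSP+ cells of orthotopic CT26 tumors, a cluster of CD8 T cells that the deposited cell annotation names for heat-shock proteins. Every cell with this annotation was taken, 93 of the 17674 cells of the table, 45 from Cyp51-KO tumors and 48 from sg-Ctrl tumors. The CD8 cells with another annotation served as reference: 2480 CD8_Temra, 2230 CD8_Tex and 629 CD8_Teff cells. The paper uses Temra for effector memory or effector T cells activated recently, Tex for exhausted and Teff for effector T cells. CT26 is a mouse colorectal cancer line, here grown in the colon of BALB/c mice, which have an intact immune system. Tumors were taken at day 26 after injection. The Cyp51-KO group had 9 tumors, the sg-Ctrl group had 12, and the cells of a group were pooled. In the Cyp51-KO group the injected CT26 cells carried a lentiviral CRISPR knockout of Cyp51, the sterol 14-alpha demethylase of cholesterol synthesis, and in the sg-Ctrl group a control guide in the same vector, whose blue fluorescent protein (TagBFP) marked the tumor cells. The CD8 cells belong to the host in both groups and were not edited, so the groups differ in the tumor they came from. Each group also had its own samples, so a difference between samples cannot be told apart from one between tumors. Bulk leukocytes (CD45+), T cells (CD45+ CD3+) and tumor cells (CD45- BFP+) had been sorted apart and mixed at 50, 40 and 10%, and their RNA was read in single cells with a droplet kit that sequences the 5′ ends of transcripts. The table gives, for each cell, its group, its annotation, its unique molecular identifiers (UMIs, which count captured RNA molecules), its genes detected and the percent of its UMIs from mitochondrial genes. It holds no gene expression, so Cyp51 was not checked in the tumor cells.

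The heat-shock response is the induction of chaperones, proteins that fold other proteins or keep them from aggregating, when proteins misfold. It is driven by heat-shock factor 1 (HSF1), which binds heat-shock elements, inverted repeats of a short GAA unit, in the promoters of chaperone genes. Hspa1a and Hspa1b encode the inducible HSP70, the best known of these chaperones. T cells, like most cells, switch these genes on under heat and other stress.

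The genes that the study lists as leading for CD8_HSP+, read here by name only, were Hspa1a and Hspa1b, Hsph1 (an HSP110 and exchange factor of HSP70), Dnajb1 and Dnaja1 (HSP40 co-chaperones of HSP70), Hsp90aa1 (an HSP90), Hspa8 (the constitutive HSP70), Hspe1 (the mitochondrial co-chaperonin), Klf2 and Jun. Klf2 is a transcription factor of resting and recirculating T cells, and Jun a subunit of AP-1. No gene of the CD8 T list fixed here (Cd8a, Cd8b1, Cd3e, Cd3g, Cd3d) stood among them, whereas Cd8a or Cd8b1 stood among the leading genes of CD8_Temra, CD8_Tex and CD8_Teff. None of the leading genes stood on the lists of exhaustion, cytotoxic or other cell type genes either. The study lists the same small number of top genes for each cluster, and chaperones filled most places of CD8_HSP+. Absence from such a short list does not show that a gene was not expressed, or that CD8 identity was weaker. Klf2 stood on the list of naive or central memory genes, and Jun on that of dissociation-linked immediate early genes. The latter list held only immediate early genes and the chaperones had their own, so it does not tell whether chaperones are dissociation-linked. The tumors had been broken up mechanically and digested with collagenase in a warm incubation before sorting. Whether this step raised the chaperone genes was not tested. The HSP in the name matches the leading genes, but this is no separate check. The authors named clusters by their differential genes in these same cells and by known markers. The CD8 identity, for which Cd8a was given as a marker, could not be checked against expression. The authors had taken dissociation-induced genes, mitochondrial genes and HLA genes out of the variable genes before clustering, without a list of these genes in the methods.

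The promoters of Hspa1a and Hspa1b are shown because these are the marker genes of the cluster and because their likeness bears on what a read can tell. On GRCm38, Hspa1a lies on chromosome 17 from 34969190 to 34972156 and Hspa1b from 34956436 to 34959238, both on the minus strand and each with 1 exon. In RefSeq (GRCm38.p6) the 250 bases before the start of transcription are chr17:34972157-34972406 for Hspa1a and chr17:34959239-34959488 for Hspa1b, given below 5′ to 3′ on the minus strand, in lower case with the core of a heat-shock element in capitals.
Hspa1a: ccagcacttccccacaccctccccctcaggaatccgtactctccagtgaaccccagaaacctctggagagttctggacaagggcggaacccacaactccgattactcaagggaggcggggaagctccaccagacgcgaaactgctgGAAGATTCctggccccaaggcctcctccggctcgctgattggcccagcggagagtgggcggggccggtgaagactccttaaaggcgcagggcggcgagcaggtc
Hspa1b: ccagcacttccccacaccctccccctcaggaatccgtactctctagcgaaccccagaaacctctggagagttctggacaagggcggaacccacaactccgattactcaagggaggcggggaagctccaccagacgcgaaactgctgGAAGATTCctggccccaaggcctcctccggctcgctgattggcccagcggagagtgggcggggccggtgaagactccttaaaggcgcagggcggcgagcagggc
Both hold the same core, with its first base at position -104 (the base just before the start is -1). The core was searched on both strands as GAANNTTC or TTCNNGAA, which overlap each other in longer elements. It is found in 15.1% of all 32851 promoter windows (250 bases before the start and 50 after it), so a single core says little. Among the 10 heat-shock chaperones listed here (those above with Hspd1 and Hsp90ab1), 7 matched a window and 6 had the core in a window. A further unit next to the core, a pattern found in 0.603% of all windows, was present for 3 of them, Hsph1, Hspe1 and Hspd1, and the last 2 share a promoter region. The windows of Dnajb1, Klf2 and Cd8a held no core, and 1 window of Dnaja1 and that of Jun held a single core. A gene was counted if any of its windows held the pattern, and some genes have several windows. The percentages are of single windows, so counts and percentages are not directly comparable. All of these are matches of letters and not binding sites.

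The printed promoters differ in 3 of 250 bases (98.8% identical). The coding sequences, 1926 bases in Hspa1a and 1929 in Hspa1b, are 99.4% identical, with 8 differing bases and 3 bases in a gap. Of the first 100 bases of the transcripts, where 5′ reads begin, 1 differs. Reads of this pair could therefore be assigned to either gene or dropped as ambiguous, and the split between Hspa1a and Hspa1b is uncertain in any count made from them.

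Each group was treated as 1 sample, because the table ties a cell to its group and not to 1 of the 2 samples listed per group. Groups were therefore not tested against each other. The 95% intervals of shares are exact binomial ones (Clopper-Pearson), and those of medians are exact ones read from the ranked cells. They cover the counting of cells only, not the spread between tumors, sorts or libraries, and intervals that lie apart do not show an effect of the knockout. The sources used here do not say what was done about doublets. Of the cell barcodes, 98 occurred in both groups, and 0 of these belonged to a CD8_HSP+ cell. Within each group 0 barcodes were repeated. The sample titles end in the same codes in both groups, and the labels do not explain these codes. Whether the 2 samples listed per group are separate libraries was not tested.

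CD8_HSP+ cells were a small part of the CD8 cells in both groups, and their share did not separate Cyp51-KO from sg-Ctrl tumors. They were 45 of 2770 CD8 cells in Cyp51-KO tumors, 1.62% (95% interval 1.19 to 2.17%), and 48 of 2662 in sg-Ctrl tumors, 1.80% (1.33 to 2.38%). The log2 ratio of the shares was -0.15, and its range, from the lower bound of one share over the upper bound of the other to the reverse, ran from -1.01 to 0.70. Built from the bounds of both shares, this range is wider than a 95% interval of the ratio and is no limit of detection. The size of change that these numbers of cells could detect was not tested. Pooled over the groups the share was 1.71% of CD8 cells (1.38 to 2.09%) and 0.526% of all cells.

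The intervals of the groups also overlapped when larger parts of the mix were counted. CD8_HSP+ cells were 1.01% of T cells in Cyp51-KO tumors and 1.19% in sg-Ctrl tumors, and 0.755 and 0.924% of lymphocytes. Among all immune cells they were 0.569 and 0.751%, and among all cells 0.429 and 0.668%. The log2 ratio went from -0.24 over T cells to -0.64 over all cells. Since T cells and tumor cells were added at set parts, the wider shares also follow the mix.

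Against single reference annotations the ratio differed in sign. Counted with CD8_Tex cells alone, CD8_HSP+ cells were 4.38% in the Cyp51-KO group against 3.70% in the sg-Ctrl group (log2 ratio 0.24), and counted with CD8_Temra cells alone 3.28 and 4.00% (-0.29), with overlapping intervals. Counted with CD8_Teff cells alone they were 9.76% (7.21 to 12.8%) and 18.4% (13.9 to 23.6%), and here the intervals lay apart (-0.91). The number of CD8_HSP+ cells was close in the groups, while CD8_Teff cells numbered 416 in the Cyp51-KO group and 213 in the sg-Ctrl group, so this ratio moves with the CD8_Teff count.

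**Figure D1:**
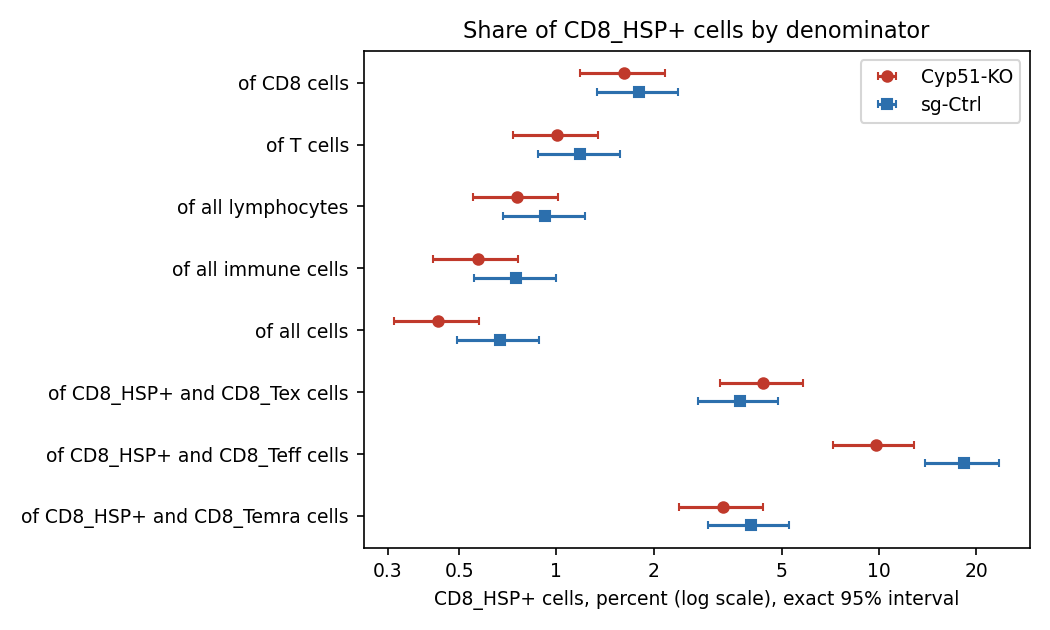
Share of CD8_HSP+ cells in percent (log axis) over 8 denominators, as points for Cyp51-KO (circles) and sg-Ctrl (squares) tumors with exact 95% intervals as bars. The intervals of the groups overlap for each denominator except CD8_HSP+ and CD8_Teff cells, at 9.76% and 18.4%.

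CD8_HSP+ cells of Cyp51-KO tumors had fewer UMIs at the median than those of sg-Ctrl tumors, as the other CD8 cells did, and the intervals of the CD8_HSP+ medians overlapped. In Cyp51-KO tumors the lowest cell had 610 UMIs, the median was 3680 (2777 to 5120) and the highest cell had 36900. In sg-Ctrl tumors these values were 2164, 5679.5 (4935 to 7241) and 23077. The middle cells, from the lower to the upper quartile, ran from 2558 to 5787 UMIs in the Cyp51-KO group and from 3935.5 to 8771 in the other group. The distributions overlapped widely: 33 of 45 Cyp51-KO cells lay below the sg-Ctrl median, and 11 of 48 sg-Ctrl cells lay below the Cyp51-KO median. At the low end, 8 Cyp51-KO cells had fewer UMIs than any CD8_HSP+ cell of sg-Ctrl tumors.

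The log2 ratio of the medians, Cyp51-KO over sg-Ctrl, was -0.63 (-1.38 to 0.05) in CD8_HSP+ cells and -0.82 in the other CD8 cells, whose medians were 4217 and 7466 UMIs. Among the reference annotations it was -0.52 in CD8_Teff, -0.64 in CD8_Tex and -1.02 in CD8_Temra cells. Outside the CD8 cells it was also negative in most clusters, such as Th1_like (-1.18), B cells (-0.93) and malignant cells (-0.21). Of all clusters, only neutrophils (0.05) and intestinal cells (0.19) had a positive ratio. The lower UMI number in Cyp51-KO tumors was thus shared by the CD8 annotations and by most other clusters, and was not particular to CD8_HSP+ cells.

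Within a group, CD8_HSP+ cells lay nearest to CD8_Temra cells and below CD8_Tex and CD8_Teff cells in UMIs. In Cyp51-KO tumors their median of 3680 stood between those of CD8_Temra (3005) and CD8_Tex cells (5496), with CD8_Teff cells at 8245. In sg-Ctrl tumors their median of 5679.5 stood below CD8_Temra (6112), CD8_Tex (8568.5) and CD8_Teff cells (11833). The intervals overlapped with CD8_Temra cells and lay apart from CD8_Tex and CD8_Teff cells in both groups. Against all other CD8 cells together the log2 ratio was -0.20 in Cyp51-KO tumors, with overlapping intervals, and -0.39 in sg-Ctrl tumors, with intervals apart. Since the reference is a mix, this value depends on how many CD8_Temra, CD8_Tex and CD8_Teff cells a group holds.

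**Figure D2:**
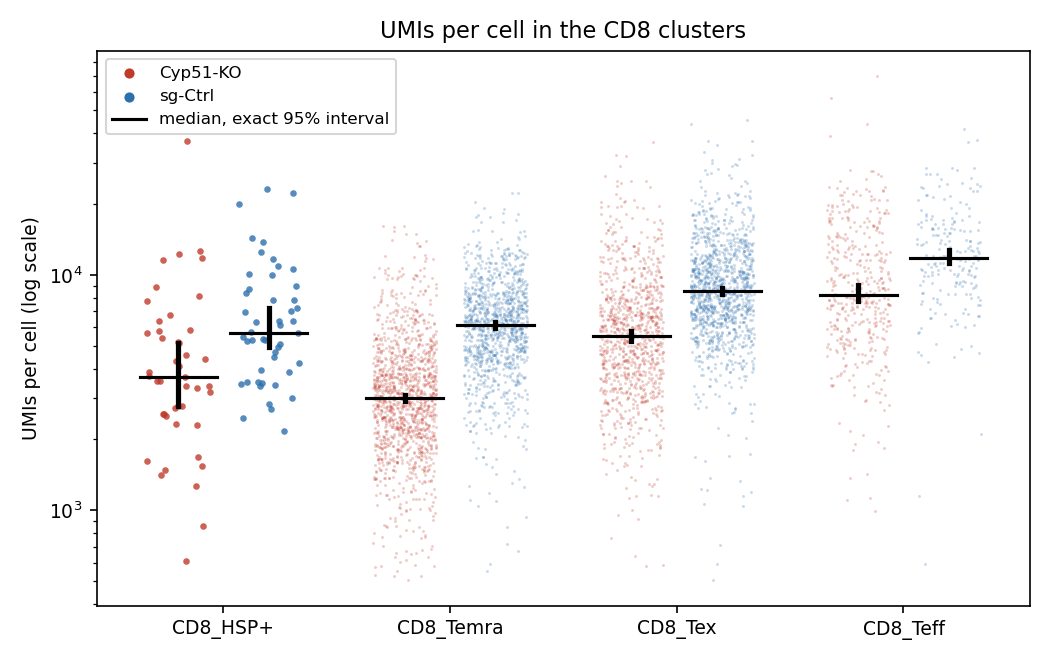
UMIs per cell (log axis) of the 4 CD8 annotations by group (Cyp51-KO left, sg-Ctrl right). Each point is a cell, a horizontal line the median and a vertical bar its exact 95% interval. CD8_HSP+ medians (3680 and 5679.5) lie near those of CD8_Temra cells (3005 and 6112), below CD8_Tex and CD8_Teff cells.

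A few cells stood apart. In Cyp51-KO tumors the CD8_HSP+ cell with the most UMIs had 36900 UMIs and 5547 genes, while the next had 12606 UMIs and 2744 genes, and only 4 of the 2725 other CD8 cells of the group had more UMIs. In sg-Ctrl tumors the top CD8_HSP+ cells were close to each other, at 23077 and 22249 UMIs. Whether such cells are doublets was not tested. The log2 ratio of the medians was -0.64 without the top cell of each group.

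At the low end, 8 of 45 CD8_HSP+ cells in Cyp51-KO tumors (17.8%, upper bound 32.1%) had under 2000 UMIs, beside 12.4% of the other CD8 cells. In sg-Ctrl tumors 0 of 48 did (upper bound 7.40%), beside 1.72% of the other CD8 cells. Under 1000 UMIs there were 2 and 0 CD8_HSP+ cells.

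The share of CD8_HSP+ cells was also followed along the UMIs of the CD8 cells of each group, in 4 parts of equal size. In Cyp51-KO tumors it was 2.02, 1.74, 1.59 and 1.15% from the part with the fewest UMIs to that with the most (14, 12, 11 and 8 cells), with intervals that overlapped throughout. In sg-Ctrl tumors 23 of the 48 cells fell in the part with the fewest UMIs, a share of 3.45% (2.20 to 5.14%), and the other parts held 1.35, 1.05 and 1.35%. Of these, the part at 1.05% (0.424 to 2.16%) had an interval apart from that of the lowest part.

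In a comparison at like UMIs, added once the data had been seen, the groups differed among CD8 cells of over 2000 and up to 4000 UMIs. There CD8_HSP+ cells were 17 of 966 CD8 cells in Cyp51-KO tumors, 1.76% (1.03 to 2.80%), and 13 of 228 in sg-Ctrl tumors, 5.70% (3.07 to 9.55%), intervals apart. From 4000 to 8000 UMIs they were 1.38 and 1.74%, and from 8000 to 16000 UMIs 1.504 and 1.09%, with overlapping intervals. A given window cuts the groups at different places, since it lies near the middle of the Cyp51-KO cells and at the low end of the sg-Ctrl cells.

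**Figure D3:**
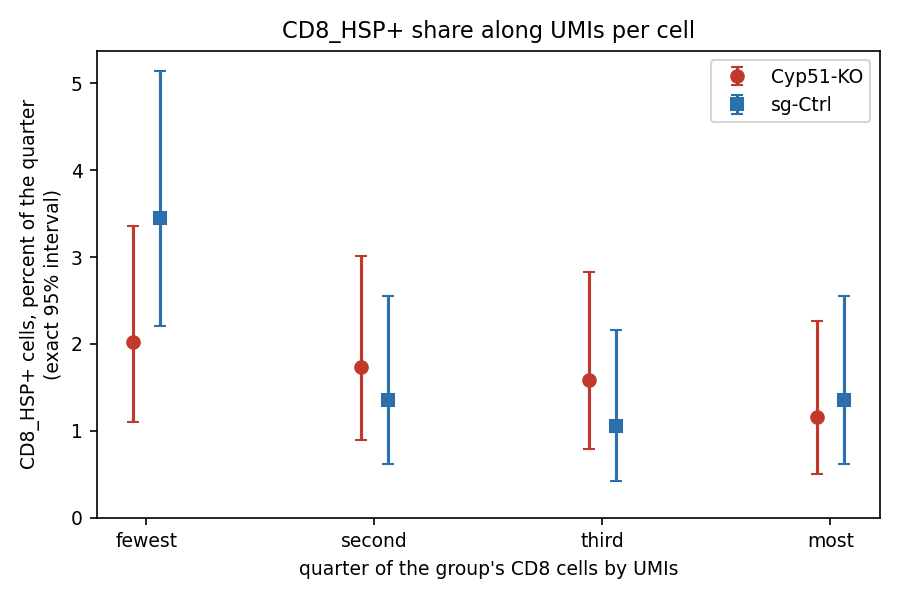
Share of CD8_HSP+ cells in percent within 4 equal parts of the CD8 cells of each group, ordered by UMIs per cell, with exact 95% intervals as bars. The sg-Ctrl share is 3.45% in the part with the fewest UMIs and 1.05 to 1.35% in the others, and the Cyp51-KO share runs from 2.02 to 1.15%.

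Fewer genes were detected in CD8_HSP+ cells of Cyp51-KO tumors than in those of sg-Ctrl tumors. The lowest, median and highest cells had 438, 1348 (1191 to 1588) and 5547 genes in Cyp51-KO tumors, and 1061, 1878 (1630 to 2094) and 4467 in sg-Ctrl tumors. The intervals of the medians lay just apart (log2 ratio -0.48, -0.81 to -0.04), and 35 of 45 Cyp51-KO cells lay below the sg-Ctrl median. In the other CD8 cells, with medians of 1544 and 2404 genes, the ratio was -0.64. Genes with a value after the depth correction of SCTransform gave 1406 and 1878 at the median (-0.42). In many cells this number equalled the uncorrected one, as the sg-Ctrl medians did, so it is not a measure independent of depth.

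The order of the annotations was that of the UMIs. Relative to CD8_Temra cells the log2 ratio of median genes was 0.16 in the Cyp51-KO group and -0.12 in the sg-Ctrl group, and the intervals overlapped in both. CD8_HSP+ cells had fewer genes than CD8_Tex cells (log2 ratios -0.46 and -0.48, Cyp51-KO group named first) and CD8_Teff cells (-0.81 and -0.72), with intervals apart.

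Because genes detected rise with UMIs (Spearman rho across cells 0.98 and 0.94 in the CD8_HSP+ cells of Cyp51-KO and sg-Ctrl tumors), each cell was also set against a line of log genes on log UMIs through the other CD8 cells of its group. CD8_HSP+ cells lay slightly below the line. The median deviation was -0.055 (log2, -0.090 to 0.034) in Cyp51-KO tumors (-3.72% in genes), with 27 of 45 cells below the line. In sg-Ctrl tumors it was -0.053 (-0.110 to -0.033), or -3.59%, with 35 of 48 cells below. Of the other CD8 cells, 48.3% and 47.7% lay below. Only in sg-Ctrl tumors did the interval of the share below the line (72.9%, 58.2 to 84.7%) lie apart from that of the other cells. Whether the deviation differs between the groups was not tested. With lines through CD8_Temra, CD8_Teff or CD8_Tex cells alone it was negative as well, from -0.035 to -0.088. Against the line through all other CD8 cells, CD8_Teff cells lay below too, at medians of -0.033 and -0.036 (Cyp51-KO group named first). Their intervals overlapped those of CD8_HSP+ cells in both groups. CD8_Temra cells lay at -0.007 and -0.010, and CD8_Tex cells above the line at 0.031 and 0.026.

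**Figure D4:**
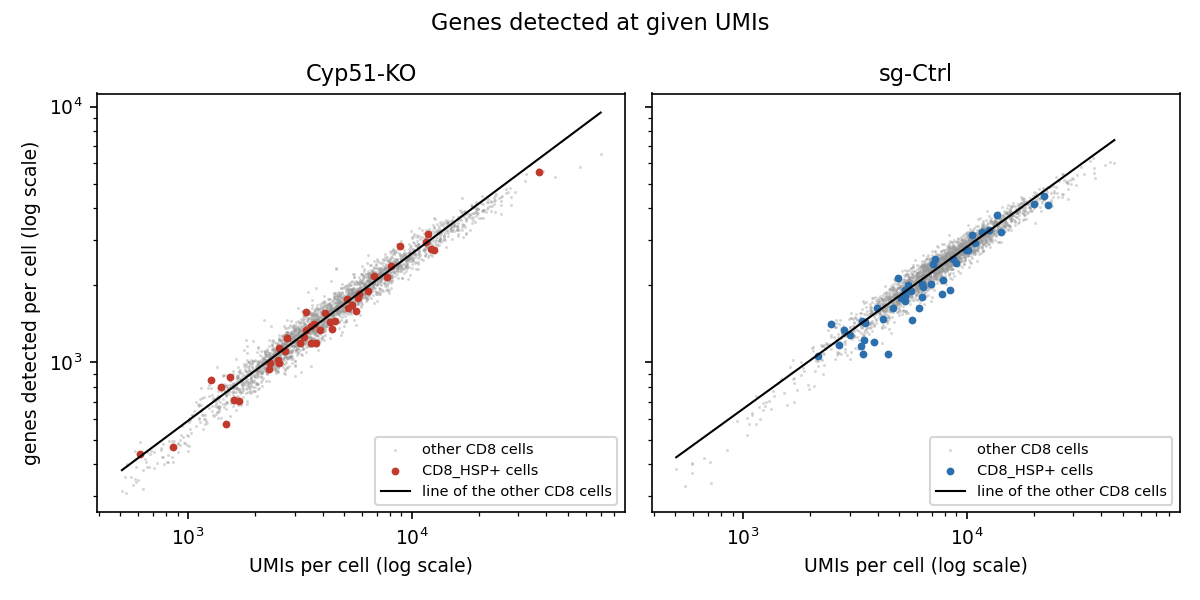
Genes detected against UMIs per cell (log axes) in each group, with CD8_HSP+ cells in colour, the other CD8 cells in grey and the line through the other CD8 cells in black. The CD8_HSP+ cells follow the line, with 27 of 45 and 35 of 48 cells below it.

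Of UMIs, genes and mitochondrial percent, the last had the largest log2 ratio of medians between the CD8_HSP+ cells of the groups. The ranges of these ratios overlapped, so the order of the measures is uncertain. The lowest, median and highest cells had 0.164, 0.661 (0.595 to 0.814) and 1.58% in Cyp51-KO tumors, and 0.458, 1.14 (1.004 to 1.34) and 4.90% in sg-Ctrl tumors. The medians differed by -0.475 percentage points, Cyp51-KO minus sg-Ctrl, with intervals apart. Of the Cyp51-KO cells, 37 of 45 lay below the sg-Ctrl median and 10 below every CD8_HSP+ cell of sg-Ctrl tumors, and 10 sg-Ctrl cells lay above every Cyp51-KO cell. The remaining cells overlapped.

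The other CD8 cells differed in the same direction, with medians of 0.897 and 1.18% and a difference of -0.28 points. As a log2 ratio of medians the values were -0.78 in CD8_HSP+ cells and -0.37 (CD8_Tex) to -0.44 (CD8_Teff) in the reference annotations. Among all 20 clusters only mast cells, at -0.87, had a lower ratio. The range of the CD8_HSP+ ratio, -1.17 to -0.30, was wide. It took in the ratios of the reference annotations, of malignant cells (-0.71) and of monocytes (-0.54). A lower mitochondrial percent in Cyp51-KO tumors was common to most clusters, with a positive ratio only in neutrophils, intestinal cells and plasma cells.

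Within Cyp51-KO tumors, CD8_HSP+ cells had a lower mitochondrial percent than each reference annotation. Their median of 0.661% compared with 0.872% in CD8_Temra, 0.912% in CD8_Teff and 0.926% in CD8_Tex cells, with intervals apart from all of them. In sg-Ctrl tumors their median of 1.14% compared with 1.14, 1.24 and 1.20%, with overlapping intervals. Against all other CD8 cells the difference was -0.236 points in the Cyp51-KO group and -0.043 points in the sg-Ctrl group. The contrast between these differences was not tested.

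Cells over 1% mitochondrial UMIs were 24.4% of CD8_HSP+ cells in Cyp51-KO tumors, beside 37.1% of the other CD8 cells, and 66.7% in sg-Ctrl tumors, beside 68.5%. Over 2.5% there were 0 of 45 (upper bound 7.87%) and 2 of 48 cells. The highest sg-Ctrl cell, at 4.90%, was also the CD8_HSP+ cell with the fewest UMIs of its group, 2164, and the next, at 2.83%, had 2474 UMIs.

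Depth was set beside the mitochondrial percent, as UMIs also differed between the groups. In Cyp51-KO tumors the CD8_HSP+ median lay below that of the other CD8 cells in each window up to 16000 UMIs, at 0.403 against 0.814% up to 2000 UMIs (8 cells, intervals apart), 0.787 against 0.879% from 2000 to 4000, 0.742 against 0.911% from 4000 to 8000 and 0.652 against 0.925% from 8000 to 16000. In sg-Ctrl tumors it was 1.34 against 1.18% from 2000 to 4000, 1.13 against 1.17% from 4000 to 8000 and 1.12 against 1.19% from 8000 to 16000 UMIs. From 2000 UMIs on, the intervals of CD8_HSP+ and other CD8 cells overlapped in each of these windows. Above 16000 UMIs there were only 1 and 3 CD8_HSP+ cells, at medians of 1.01 and 1.26%, beside 0.885 and 1.14% in the other CD8 cells. Across cells, UMIs and mitochondrial percent had a Spearman rho of 0.34 in the 45 CD8_HSP+ cells of Cyp51-KO tumors and -0.13 in the 48 of sg-Ctrl tumors, given as a description. The mitochondrial percent had been regressed out of the expression values before clustering, so the cluster was formed with this measure taken into account.

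**Figure D5:**
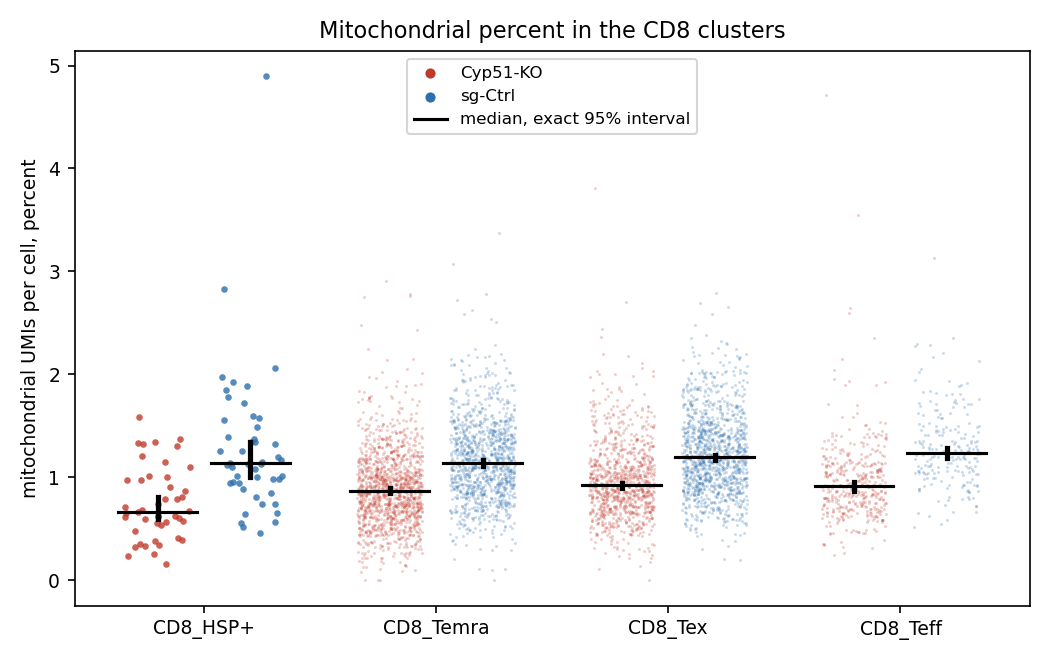
Mitochondrial UMIs in percent of each cell's UMIs in the 4 CD8 annotations by group (Cyp51-KO left, sg-Ctrl right). Each point is a cell, a horizontal line the median and a vertical bar its exact 95% interval. The CD8_HSP+ median is 0.661% in Cyp51-KO tumors, below the reference annotations, and 1.14% in sg-Ctrl tumors, at their level.

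Among all 20 clusters, ordered from the lowest median, CD8_HSP+ cells ranked 9 in UMIs in Cyp51-KO tumors, between the Functional_NK_1 cluster (3437) and neutrophils (4040), and 8 in sg-Ctrl tumors, between Th17 (5453.5) and CD8_Temra cells (6112). In mitochondrial percent they ranked 3 in Cyp51-KO tumors, between intestinal (0.629%) and plasma cells (0.686%), and 10 in sg-Ctrl tumors. Their interval overlapped that of 8 other clusters in the Cyp51-KO group and of 9 in the sg-Ctrl group, so their place in this order is uncertain. Differences from the neighbouring clusters were not tested.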

How the data were processed

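Single cells of Cyp51-KO and sg-Ctrl CT26 tumors were analysed from 1 deposited table with 1 line per cell. According to the submitters' processing notes and the paper, the authors used Cell Ranger 7.0 on GRCm38, then filtered, merged and clustered the cells with Seurat 4.2.0 under R 4.2.0. The deposited UMIs and genes per cell are raw counts made by the authors (500 to 99951 UMIs and 226 to 6998 genes in the table). The mitochondrial percent was computed by the authors (at most 4.98% in the table). The SCTransform values are deposited corrected totals, used as a score, and only their genes per cell were compared. Depth is that of the cells, from 610 to 36900 UMIs in CD8_HSP+ cells. Groups were read from the barcode prefix of each cell, which matches the sample titles, and the group column of the table. A per-library comparison was planned only if cells could be tied to libraries, and they could not. Shares had exact and, as an alternative, Wilson 95% intervals, with Python 3.11.15, pandas 2.3.3, NumPy 2.4.6, SciPy 1.17.1 and Matplotlib 3.10.9. The intervals and lines were tested on simulated data. The cells, the gene lists and the alternatives were chosen with earlier results of these data known. Genes were named by the cluster's markers and, without values, by the leading genes the study lists. Thinning cells to equal UMIs needs counts per gene and was not done, and no doublet caller was run.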

Additional observations from a re-analysis of the deposited data

Results flagged for a closer look

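Set against CD8_Temra cells, the CD8_HSP+ cells lay on opposite sides in the groups. The log2 ratio of median UMIs was 0.29 in the Cyp51-KO group against -0.11 in the sg-Ctrl group, that of median genes detected was 0.16 and -0.12, and that of genes after SCTransform correction was 0.12 and -0.12. The intervals of CD8_HSP+ and CD8_Temra cells overlapped in each of these, the 3 measures come from the same cells, and the difference between the groups was not tested.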

How the results depend on the processing

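No paired analysis was possible because no cell can be assigned to 1 of the samples of its group, and for the same reason no library could be left out. The share ratio of -0.15 became -1.70 among CD8 cells of over 2000 and up to 4000 UMIs (chosen after the data were seen), and had the other sign, within its range, above the UMI median of the group (0.19), from 8000 to 16000 UMIs (0.47) and over CD8_HSP+ and CD8_Tex cells (0.24). Against single annotations, median UMIs relative to CD8_Teff cells were -1.16 (log2) in the Cyp51-KO group against -1.06 in the sg-Ctrl group. Relative to CD8_Temra cells they were 0.29 in Cyp51-KO tumors, where the value against all other CD8 cells was -0.20, a turn of sign within its range. Median genes were 0.16 (CD8_Temra, a turn of sign beyond the range of -0.41 to 0.073 around the value of -0.20 against all other CD8 cells), -0.81 (CD8_Teff) and -0.46 (CD8_Tex) in Cyp51-KO tumors, and -0.12 (CD8_Temra) and -0.72 (CD8_Teff) in sg-Ctrl tumors. These references hold fewer kinds of cells by construction. The difference in mean mitochondrial percent in sg-Ctrl tumors was 0.082 points, where that of the medians was -0.043. Removing cells under 1000 UMIs or over 2.5% mitochondrial UMIs, removing the 5% of CD8 cells with the most UMIs, or removing the top CD8_HSP+ cell of each group, moved no value past its spread. With 45 and 48 cells, shares are known only to the intervals given.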
